A study of Arabidopsis thaliana with 21 samples.

Results

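The peaks of 2 altered forms of the Arabidopsis transcription factor GLABRA2 (GL2) were compared: gl2_dSTART, whose name stands for a deletion of the START domain, and gl2_E375G R392M, which carries amino acid substitutions. The labels do not place these substitutions in a domain, so the form is called by its label. Members were all peaks of both deposited lists on the 5 nuclear chromosomes, less those that overlapped a peak of the gl2-5 null mutant by 1 bp or more. This left 2318 gl2_dSTART peaks and 989 gl2_E375G R392M peaks, 3307 of the 10293 nuclear peaks in the 6 lists of the series. A peak is called shared when it overlapped a peak of the other list by at least 1 bp, and private otherwise.

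ChIP-seq, which sequences the DNA recovered with an immunoprecipitated protein, was done with an anti-GFP antibody on Columbia seedlings aged 10 days. Every fusion, the GL2 reference included, was made of EYFP (enhanced yellow fluorescent protein) and a form of GL2, and was brought by floral dip into plants homozygous for gl2-5. Per the labels, wild-type EYFP:GL2 rescued the mutant and the altered forms did not. The promoter and the number of plant lines were not given in the sources used here. There were 2 ChIP libraries for gl2_dSTART and 3 for gl2_E375G R392M, with 1 input each. The reference lists came from EYFP:GL2 (3 ChIP libraries), from the fusions gl2_Amo (3) and gl2_dZip (2), and from gl2-5 without a fusion (2). The ChIP libraries of each genotype were merged before peaks were called, so every value below is a single measurement without replicate error, and no difference between genotypes was tested.

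GL2 belongs to the class IV homeodomain leucine zipper (HD-Zip IV) family. The homeodomain binds DNA, the leucine zipper joins partner proteins, and the START domain is a module related to animal lipid transfer proteins. In the epidermis GL2 promotes trichome outgrowth, keeps root hairs off non-hair cells and acts in the mucilage layer of the seed coat.

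The merged alignments held 24075540 tags for gl2_dSTART and 29386624 for gl2_E375G R392M, of which the caller retained 297665 and 372864 after it kept at most 1 tag at each position. The inputs retained 1015614 and 1021162 tags, from unequal totals of 20594479 and 69698805. The shallowest accepted peak held 5 tags in gl2_dSTART and 6 in gl2_E375G R392M. The highest false discovery rate (FDR) the caller gave was 1.38% in the first list and 9.84% in the second, each set within its own list. Overlap with gl2-5 removed 221 gl2_dSTART peaks (8.70%) and 291 gl2_E375G R392M peaks (22.7%). Where a form had no peak, the site did not reach the calling limit with these tags, which does not show that it was unbound.

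The lists met mainly in gene-poor DNA. Of the gl2_dSTART peaks, 313 (13.5%, 95% Wilson interval 12.2 to 15.0) overlapped a gl2_E375G R392M peak. Of the shorter gl2_E375G R392M list, 295 (29.8%, 27.1 to 32.8) overlapped a gl2_dSTART peak. Because a long peak can meet several short ones, these made 317 pairs. Bins of 500000 bp were called gene-poor where their protein-coding genes numbered under 50% of the bin median (39 of 240 bins). In these, 20.6% of the gl2_dSTART peaks (258 of 1250) and 56.2% of the gl2_E375G R392M peaks (240 of 427) were shared. In the 201 gene-rich bins, 5.15% (55 of 1068) and 9.79% (55 of 562) were shared. The intervals, which hold counting error alone and take no account of clustering among peaks, did not overlap between bin types in either list. How much overlap chance would give was not computed.

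**Figure D1:**
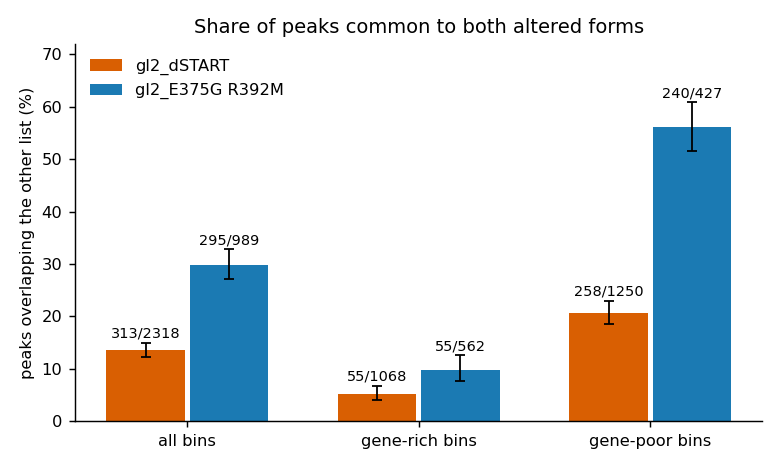
Percent of the peaks of each altered form that overlapped a peak of the other, in all bins, gene-rich bins and gene-poor bins; bars start at 0, lines are 95% Wilson intervals and the counts stand above. Shares in gene-poor bins reached 20.6% of gl2_dSTART and 56.2% of gl2_E375G R392M, against 5.15% and 9.79% in gene-rich bins.

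Shared peaks were gathered in few places. A single bin, chromosome 5 from 11500001 to 12000000, held 98 shared gl2_dSTART peaks (31.3% of all shared ones of that list) and 93 shared gl2_E375G R392M peaks (31.5%). A bin on chromosome 3 from 13500001 to 14000000 held 51 and 43. Private peaks in those bins came almost entirely from the deletion form: 163 against 11 in the chromosome 5 bin and 166 against 10 in the chromosome 3 bin. The gl2_dSTART list is the longer one, with 2005 private peaks against 694 over all bins and 992 against 187 over gene-poor bins. On chromosome 1 from 15000001 to 15500000, gl2_dSTART had 87 private peaks and gl2_E375G R392M had 6, beside 8 shared in each. These bins were picked by their counts.

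By chromosome, the shared part of gl2_dSTART ran from 7.13% on chromosome 1 to 21.2% on chromosome 5. That of gl2_E375G R392M ran from 15.8% on chromosome 2 to 46.3% on chromosome 5. Gene-poor bins held 82.4% of the shared and 49.5% of the private gl2_dSTART peaks. For gl2_E375G R392M they held 81.4% of the shared and 26.9% of the private peaks. By number, private peaks of gl2_E375G R392M were thus mostly in gene-rich bins, and those of gl2_dSTART were nearly even between both kinds of bin. Gene-poor bins were 39 of the 240 bins. Both private sets therefore lay in them more often than the number of bins alone would give. Nearly every gene-rich bin had peaks (199 of 201 for gl2_dSTART and 182 for gl2_E375G R392M), whereas 40 had a shared one.

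**Figure D2:**
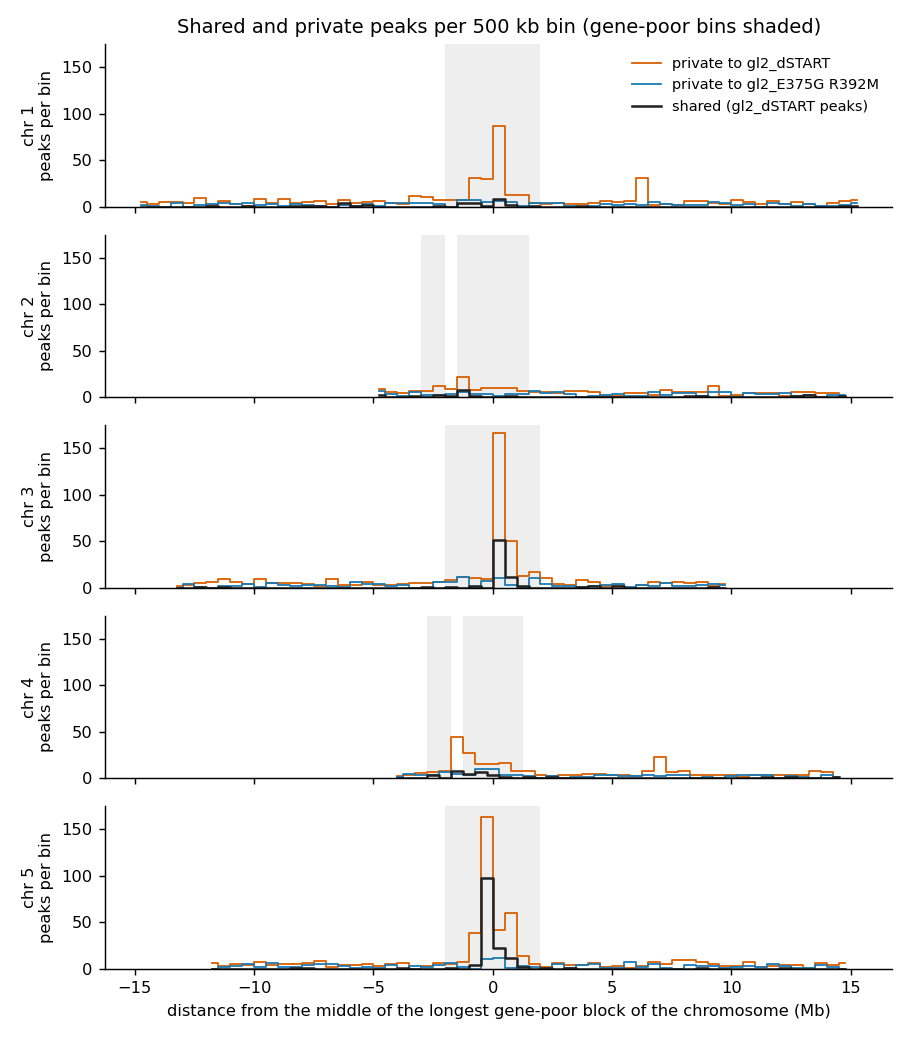
Peaks per bin of 500000 bp on each chromosome, private to gl2_dSTART (orange), private to gl2_E375G R392M (blue) and shared (black, counted as gl2_dSTART peaks), against the distance in Mb from the middle of the longest gene-poor block; gene-poor bins are shaded. The tallest black step, on chromosome 5, is 98 peaks, and the tallest orange steps are 166 on chromosome 3 and 163 on chromosome 5.

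Shared peaks were longer and held more tags. In gl2_dSTART, shared peaks had a median length of 211 bp and a median of 25 tags, and private peaks 127 bp and 6 tags. In gl2_E375G R392M, shared peaks had 225 bp and 40 tags, and private peaks 109 bp and 7 tags. All 14 gl2_dSTART and all 13 gl2_E375G R392M peaks over 1000 bp were shared. Shared peaks held 66.4% of the tags in gl2_dSTART peaks and 88.5% of those in gl2_E375G R392M peaks. These sums lean on the few wide peaks. The largest shared peak alone held 9718 of 39789 shared tags in gl2_dSTART and 10046 of 46026 in gl2_E375G R392M. Many private peaks sat at the limit of detection: 41.6% in gl2_dSTART had exactly 5 tags and 45.7% in gl2_E375G R392M exactly 6, against 6.71% and 3.73% of the shared ones.

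In gene-rich bins the medians differed less. Median lengths there were 93 bp (shared) and 98 bp (private) in gl2_dSTART, and 86 bp and 91 bp in gl2_E375G R392M. Median tags there were 7 and 5, and 9 and 6. Exactly 5 tags were held there by 23.6% of shared and 59.5% of private gl2_dSTART peaks. Exactly 6 were held by 16.4% of shared and 50.3% of private gl2_E375G R392M peaks. Score gave another picture. The share of gl2_dSTART peaks that were shared was 29.5%, 10.9%, 7.59% and 6.04% in 4 score groups of equal size, from the highest scores to the lowest. In its gene-poor bins the shares were 45.05%, 19.2%, 11.2% and 7.05%. In its gene-rich bins they were 7.49%, 4.49%, 4.87% and 3.75%, with intervals that overlapped. In gl2_E375G R392M the share was 32.7%, 21.9%, 22.7% and 42.1%, an order that mixes both kinds of bin. In its gene-rich bins the shares were 16.3%, 5.00%, 5.67% and 12.1%, and in its gene-poor bins 69.2%, 54.2%, 43.0% and 58.5%. Within each kind of bin the share was largest for the highest scores and rose again in the lowest group. The intervals of the highest and lowest groups overlapped in both.

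**Figure D3:**
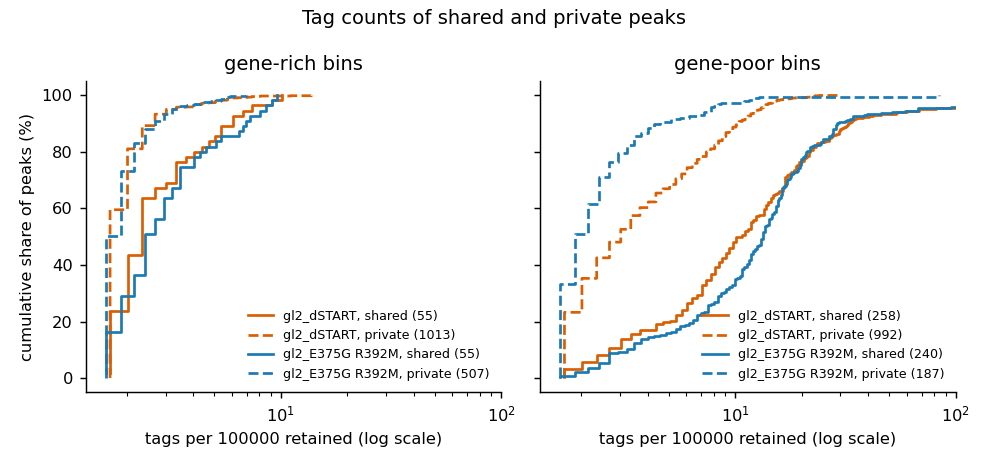
Cumulative percent of peaks by tags per 100000 retained tags (log axis, drawn up to 100) for shared (solid) and private (dashed) peaks of both forms, in gene-rich bins on the left and gene-poor bins on the right, with the number of peaks in the key. In gene-poor bins the medians were 10.4 and 3.02 for shared and private gl2_dSTART peaks and 13.4 and 1.88 for gl2_E375G R392M. In gene-rich bins they were 2.35 and 1.68, and 2.41 and 1.61. There the private curves start higher, with 59.5% and 50.3% of peaks at the lowest tag number against 23.6% and 16.4% of shared ones.

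Within most pairs the summits lay close together. The median distance between summits was 6 bp, and 235 of 317 pairs (74.1%) had summits within 20 bp. In gene-rich bins 45 of 55 pairs did. Pairs were defined by overlap, which limits this distance where peaks are short (at most 102 bp in gene-rich bins). Across all pairs it reached 6230 bp. Per 100000 retained tags, the ratio of gl2_E375G R392M to gl2_dSTART had a median of 1.08 and quartiles of 0.845 and 1.51. It ran from 0.269 to 5.79. Tags were counted over each peak's own length, and a long peak could enter several pairs. In gene-rich bins many peaks held the lowest accepted tag numbers, which are alike when scaled (1.68 and 1.61). The ratio therefore does not compare equal stretches of DNA, and its closeness to parity there follows in part from the calling limits. The fold enrichment over local input, which the caller set for each list against its own input, had a median of 14.6 in the gl2_dSTART peaks and 7.79 in the gl2_E375G R392M peaks of these pairs, and of 28.3 and 22.2 in gene-rich bins. These folds describe each list and are not on a common scale. Spearman's rho between the tags of paired peaks was 0.859 across all 317 pairs, 0.792 within gene-poor bins and 0.566 within gene-rich bins, given as a description because pairs share libraries and regions.

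**Figure D4:**
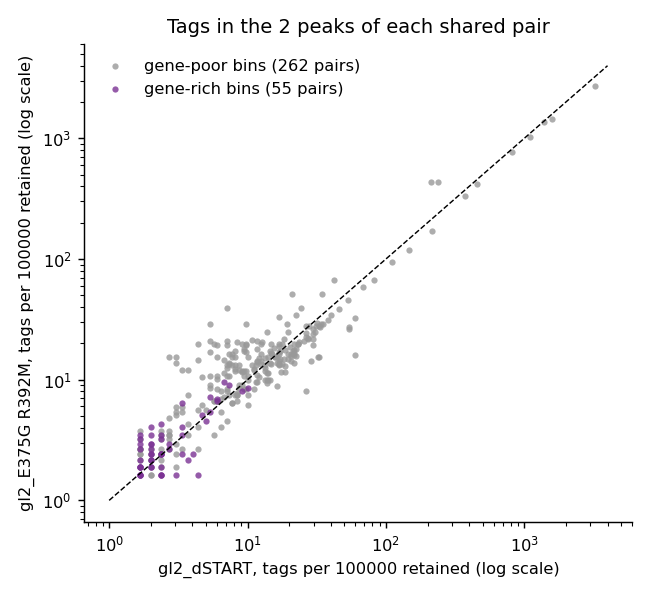
Tags per 100000 retained tags in the 317 shared pairs, gl2_dSTART (x axis) against gl2_E375G R392M (y axis), both axes logarithmic; 55 gene-rich pairs are purple, 262 gene-poor pairs grey, and the dashed line marks equality. Points lie along the line, with a median ratio of 1.08, and the gene-rich pairs sit at its low end. Tags of each peak are counted over its own length.

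Shared peaks were often also peaks of wild-type GL2. Of all gl2_dSTART members 9.92% overlapped a GL2 peak, but 138 of 313 shared ones did (44.1%, 38.7 to 49.6) and 92 of 2005 private ones did (4.59%, 3.76 to 5.59). Of all gl2_E375G R392M members 18.0% overlapped a GL2 peak, with 136 of 295 shared (46.1%, 40.5 to 51.8) and 42 of 694 private (6.05%, 4.51 to 8.08). The pattern was also present in gene-rich bins, where 24 of 55 shared peaks of each list (43.6%, 31.4 to 56.7) were in GL2. There the shares over all members were 3.37% and 10.9%, and among private peaks 1.18% and 7.30%. Overlap with GL2 also varied with score. From the highest to the lowest of 4 score groups, 26.4%, 7.08%, 3.97% and 2.25% of gl2_dSTART members overlapped a GL2 peak. For gl2_E375G R392M the shares were 28.2%, 18.6%, 9.31% and 15.8%. Whether shared and private peaks of like score or tags differ in GL2 overlap was not tested.

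The match with gl2_Amo was higher, in a list of 3533 nuclear peaks against 1001 for GL2. Overlap with gl2_Amo was found for 37.0% of all gl2_dSTART and 34.5% of all gl2_E375G R392M members, for 85.3% and 84.1% of the shared peaks, and for 29.4% and 13.4% of the private ones. For gl2_dZip, whose name stands for a deletion of the leucine zipper, the shares were 20.3% and 15.0% of all members, 33.2% and 32.2% among shared peaks, and 18.3% and 7.64% among private peaks. Within gene-poor bins the gl2_dZip shares of gl2_dSTART were close, 35.7% (interval 30.1 to 41.7) of the shared and 33.1% of the private peaks, and the intervals overlapped. Those of gl2_E375G R392M were apart, 34.6% (28.9 to 40.8) of the shared and 18.2% (13.3 to 24.3) of the private peaks. For gl2_Amo the shares of shared and private gl2_dSTART peaks were 91.9% and 54.5% in gene-poor bins, against 54.5% and 4.84% in gene-rich bins. Those of gl2_E375G R392M were 91.25% and 24.6% in gene-poor bins, against 52.7% and 9.27% in gene-rich bins. The lists differ in length and depth, so that these shares do not rank the genotypes. No other fusion list had a peak at 1317 private gl2_dSTART peaks (65.7%), at 558 private gl2_E375G R392M peaks (80.4%) and at 34 of the 313 shared gl2_dSTART peaks. In gene-rich bins 17 pairs were found in neither GL2, gl2_Amo nor gl2_dZip, and 5 pairs were in GL2 but in neither gl2_Amo nor gl2_dZip.

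**Figure D5:**
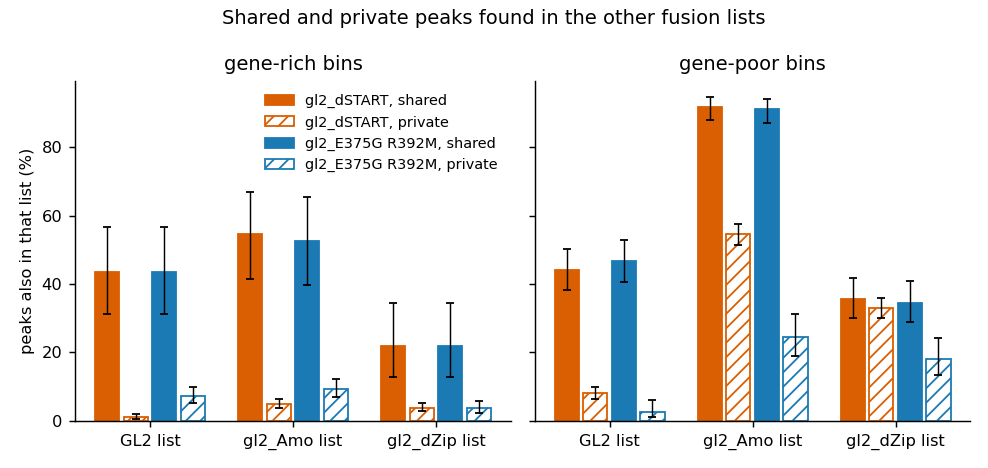
Percent of shared (filled) and private (hatched) peaks of each form that overlapped a peak of the GL2, gl2_Amo or gl2_dZip list, in gene-rich bins on the left and gene-poor bins on the right; bars start at 0 and lines are 95% Wilson intervals. For GL2 the shared bars stand at 43.6% in gene-rich bins and at 44.2% and 46.7% in gene-poor bins, above the private bars, while for gl2_dZip in gene-poor bins the shared and private bars are 35.7% and 33.1% for gl2_dSTART, and 34.6% and 18.2% for gl2_E375G R392M.

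In gene-rich bins, pairs were ranked by the lower of their places in the 2 lists. The pair placed highest was inside AT5G24610 (chromosome 5, 8428150 to 8428236), with 14 tags and 77.0-fold enrichment in gl2_dSTART and 19 tags and 89.3-fold in gl2_E375G R392M; GL2, gl2_Amo and gl2_dZip had a peak there too. The next, inside AT2G01460 (chromosome 2, 208279 to 208379), held 15 tags at 86.2-fold and 17 tags at 43.8-fold and was also in all 3 other lists. In GL2 these sites held 20 and 26 tags. Both sites were thus peaks in every fusion list.

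A pair inside SKdZeta, a shaggy-like protein kinase, held 7 tags in gl2_dSTART and 16 in gl2_E375G R392M (27.0-fold and 109-fold) and was in GL2 with 6 tags. A pair inside PC-MYB1, a MYB transcription factor, and within 1 kb of La1, which encodes a La RNA-binding protein, held 7 and 9 tags and was in GL2 with 6. A pair inside SEP3, a MADS-box factor of floral organ identity, held 6 and 7 tags and was in GL2 with 6. The PC-MYB1 and SEP3 sites were called in neither gl2_Amo nor gl2_dZip.

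Other pairs did not overlap a GL2 peak. One lay inside AT1G26100 and within 1 kb of DCP5, an mRNA decapping factor (chromosome 1, 9023710 to 9023780), with 9 tags in gl2_dSTART and 6 in gl2_E375G R392M. A pair inside AT2G43800 held 11 and 8 tags, and one inside AT1G22540 held 7 and 9. These 3 sites were in gl2_Amo. A pair inside ARF19, an auxin response factor, held 6 tags (50.4-fold) and 8 tags (54.6-fold) and overlapped no peak of another fusion list, although GL2 had a separate peak inside or within 1 kb of the gene. No other fusion list overlapped the pairs near AT1G25097 (13 and 6 tags), at AT5G59940 and AT5G59950 (5 and 8 tags), and near AT2G43580 (7 and 9 tags). Each of these sites is a short peak of few tags.

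Of the 55 gene-rich pairs, 8 lay in a run on chromosome 4 from 2921559 to 2962826, next to the gene-poor centre. They held 10 to 30 tags in gl2_dSTART and 20 to 36 in gl2_E375G R392M, and 2 of them were in GL2. The other 47 pairs held medians of 6 and 9 tags, 35 had a protein-coding gene within 1 kb, and 22 (46.8%, 33.3 to 60.8) were in GL2.

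In gene-poor bins the shared pairs placed highest were wide domains. On chromosome 4, from 3054294 to 3061548, gl2_dSTART had 4144 tags over 7255 bp and gl2_E375G R392M 5087 tags over 7252 bp; GL2 had 4278 tags there. On chromosome 5, from 11184530 to 11188947, they held 2431 and 2883 tags. On chromosome 4, from 3977333 to 3981223, they held 1364 and 1568 tags, and from 3974422 to 3977276, 1109 and 1237 tags. The gl2_dSTART domain on chromosome 2 from 3617935 to 3628181, 10247 bp long with 9718 tags, matched one of 10168 bp with 10046 tags and included the gene AT2G08986. All 5 overlapped GL2 and gl2_Amo peaks, and their borders agreed between the 2 altered forms to within 77 bp. The domains starting at 3974422 and 3977333 met the same GL2 peak, of 2411 tags. The caller's fold enrichment for the 5 was 6.09 to 10.4 in gl2_dSTART and 3.00 to 5.86 in gl2_E375G R392M. Borders did not agree in every wide pair. On chromosome 4 a gl2_dSTART peak at 3984065 to 3985743 met a gl2_E375G R392M peak at 3984091 to 3987721.

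Private peaks had genes more often. A protein-coding gene lay within 1 kb of 42.0% of private gl2_dSTART peaks (843) and 60.7% of private gl2_E375G R392M peaks (421), against 12.8% and 13.2% of the shared ones. In gene-rich bins these shares came closer: 77.1% and 78.9% for private peaks, 65.5% and 63.6% for shared peaks. Of the 8 gene-rich pairs in the run on chromosome 4, 1 had a gene within 1 kb, against 35 of the other 47. In gene-poor bins, 36.4% of the private gl2_E375G R392M summits (68 of 187) and 16.8% of the private gl2_dSTART summits fell in annotated pseudogenes, against 3.75% and 3.88% of the shared ones. Few private peaks were near misses: 194 (9.68%) in gl2_dSTART and 40 (5.76%) in gl2_E375G R392M had a peak of the other list, before removal for gl2-5, within 500 bp.

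Private peaks named by score had no peak of the other list within 500 bp. In gene-rich bins they also had a protein-coding gene within 1 kb. Those of gl2_dSTART with the highest scores in gene-rich bins were in no other fusion list. A peak inside AT1G79510 (chromosome 1, 29909929 to 29909998) held 12 tags at 101-fold enrichment. A peak near ML2, a MEI2-like RNA-binding protein, and near AT2G42900 and AT2G42910 held 8 tags at 67.2-fold. Peaks inside KUP3, a potassium transporter, and near STP1, a monosaccharide transporter, held 10 and 9 tags. Peaks inside IAA7, an Aux/IAA repressor of auxin responses, and near FdC2, a ferredoxin of plastids, held 8 and 10. The others were inside AT5G66900, next to AT5G66910 (9 tags), and inside AT1G50780 (8 tags). In gene-poor bins the leading private peaks lay close together on chromosome 5, at 12822972 to 12823476 (90 tags), 12814288 to 12815035 (69 tags) and 12852726 to 12853135 (72 tags); all 3 were in gl2_Amo and gl2_dZip, and the first and last also in GL2.

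Among private gl2_E375G R392M peaks, the one with the highest score in gene-rich bins was inside AT3G55470 and within 1 kb of SCL30, an SR splicing factor, with 16 tags at 103-fold enrichment; it was in gl2_Amo. A peak inside AT2G34840 held 18 tags at 40.5-fold, and one inside LRR XI-23, a leucine-rich repeat receptor kinase gene, held 14 tags at 25.3-fold; both were in gl2_Amo and gl2_dZip. A peak near TIR, a gene with a Toll/interleukin-1 receptor domain (10 tags at 68.3-fold), was in GL2. The remaining 4, near AT5G38950 and AT5G38960, near AT1G58390, near AT2G40955 and inside AT2G32710, held 10 to 13 tags and were in no other fusion list. In gene-poor bins the leading private peak with no gl2_dSTART peak within 500 bp was on chromosome 1 at 15214297 to 15214493, beside pseudogenes. It held 31 tags and was also in GL2 and gl2_Amo. The next were inside PRP40A, a splicing factor gene (10 tags), and inside AT4G04190 (6 tags). In these bins the private peak with most tags held 314 and was not among those named.

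In some gene-rich stretches gl2_dSTART had dense runs of peaks, in part at repeated distances, and gl2_E375G R392M had none. On chromosome 1, from 21269524 to 21308466, gl2_dSTART had 24 peaks in a stretch whose 79 annotated genes were all tRNA genes (AT1G56750 to AT1G57530). They held 5 to 12 tags at 12.6-fold to 37.9-fold enrichment, and 5 of the 23 distances between successive summits were 1532 bp to within 2 bp. In that stretch gl2_E375G R392M, GL2, gl2_Amo and gl2-5 had 0 peaks and gl2_dZip had 6. On chromosome 4, from 11043512 to 11102792, gl2_dSTART had 20 peaks of 5 to 9 tags, and 8 of 19 distances were 3259 bp to within 2 bp. That stretch holds 26 protein-coding genes and 2 pseudogenes (AT4G20510 to AT4G20707), with 0 peaks in gl2_E375G R392M, GL2 and gl2-5, 15 in gl2_Amo and 7 in gl2_dZip. Both stretches were noticed by their peak counts, and how reads that fit several copies were placed is not given in the sources used here, so that single copies cannot be told apart.

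Few genes had peaks of both forms. Of 27432 protein-coding genes, 1125 (4.1%) had a gl2_dSTART peak summit within 1 kb, 594 (2.17%) had one of gl2_E375G R392M, and 80 (0.292%) had both. The 80 were 7.11% of the gl2_dSTART genes and 13.5% of the gl2_E375G R392M genes. Shared peaks accounted for 48 of them. The other 32 had peaks of both forms that did not overlap, among them HAC12, a histone acetyltransferase, KAN2, a factor of organ polarity, and BBX21, a B-box factor of light signalling. These 3 examples were picked after the genes were listed. Of the 50 genes at a shared peak, 25 also had a GL2 peak within 1 kb, compared with 5.69% of all gl2_dSTART genes and 11.1% of all gl2_E375G R392M genes.

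Among 95 genes listed for GL2 biology, 6 had a gl2_dSTART peak within 1 kb (6.32%, against 4.1% of all genes) and 5 had a gl2_E375G R392M peak (5.26%, against 2.17%). The gene in both was GL2 itself. A shared pair lay inside it on chromosome 1, at 30037529 to 30037617 with 5 tags at 24.3-fold enrichment in gl2_dSTART and at 30037531 to 30037597 with 6 tags at 41.0-fold in gl2_E375G R392M; GL2 and gl2_dZip had a peak there too. Each form also had a private peak inside GL2, with 5 and 13 tags. The fusions carry GL2 sequence, and tags from the transgene and from the native gene cannot be told apart.

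Other members of the HD-Zip IV family had a peak of 1 form each: PDF2, which acts in shoot epidermis identity, in gl2_dSTART (11 tags at 67.2-fold, also in GL2, gl2_Amo and gl2_dZip), HDG2, which acts in trichome and stomatal development, in gl2_dSTART (5 tags), and FWA, known for its imprinted expression, in gl2_E375G R392M (7 tags). Of 25 genes of trichome and root epidermis patterning, CPC and TRY, small MYB proteins that inhibit trichome fate, had a gl2_dSTART peak (6 and 5 tags), and EGL3, a bHLH partner of the patterning complex, had a gl2_E375G R392M peak (7 tags). Of 17 root hair genes, 2 had a gl2_E375G R392M peak: LRL2, a bHLH factor, and EXPA7, a cell wall expansin (6 tags each). CHS, chalcone synthase, was the 1 of 12 flavonoid genes with a peak (gl2_dSTART, 5 tags). No peak was near the 7 mucilage and seed oil genes or the 18 cuticle genes. Over all protein-coding genes the shares were 4.1% for gl2_dSTART and 2.17% for gl2_E375G R392M. At such shares, lists this short would hold few genes with a peak or none, so these counts do not set the lists apart.

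At the edge of the gl2-5 filter, the nearest kept gl2_dSTART peak was the one inside PDF2 (chromosome 4, 2476467 to 2476613), 31 bp from a gl2-5 peak. The gl2_E375G R392M peak at 2476536 to 2476660, which covers the same site, overlapped gl2-5 by 16 bp and was removed. PDF2 was therefore counted for 1 form by this filter. In all, 2 private gl2_dSTART peaks and 1 private gl2_E375G R392M peak overlapped a peak of the other form that had been removed in this way. The nearest kept gl2_E375G R392M peak was the private one inside GL2, 60 bp from a gl2-5 peak. Among shared peaks the smallest overlap was 1 bp, at a gl2_dSTART peak of 21 tags on chromosome 3, and a private gl2_dSTART peak of 19 tags on the same chromosome adjoined a gl2_E375G R392M peak with a gap of 0 bp.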

How the data were processed

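For every genotype the authors deposited 1 list of peaks. MACS 1.4.2, per the file headers, called peaks on merged ChIP libraries against 1 input at a p-value cutoff of 1e-05, keeping at most 1 tag per position. Bowtie2 2.2.3, bcl2fastq, the TAIR10 build and MACS2 1.4.2 are named in the submitters' processing notes. The fitted fragment size was 54 bp (gl2_dSTART) and 53 bp (gl2_E375G R392M) at a tag length of 51 bp, although libraries were sized near 320 bp. Its effect on the peaks was not tested.

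Per the file headers, each deposited peak has a position, a length, a tag count (whole tags, not scaled), a score (minus 10 times the log10 p-value), a fold enrichment (ratio to local background) and an FDR in percent. Scores, folds and FDRs are the authors' values per peak and served for description, ranking and filters inside a list; where values of several lists stand side by side, each describes its own list.

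From these, overlaps were computed with pandas 2.3.3 and numpy 2.4.6 and shares with 95% Wilson intervals; the overlap code was tested on simulated data. Gene names and neighbours came from a RefSeq table on TAIR10.1, taken to match TAIR10 on the nuclear chromosomes and used without strand; a summit inside a protein-coding gene or within 1 kb counted. Gene-poor bins of 500000 bp held under 50% of the median of 131 protein-coding genes. Tags were scaled to 100000 retained tags where stated. Named were the 12 best-ranked shared pairs with a gene in gene-rich bins and the 5 best in gene-poor bins. Per list, the private peaks of highest score were named, 8 with a gene in gene-rich bins and 3 in gene-poor bins. In both kinds of bin, private peaks picked by score had no peak of the other list within 500 bp. Members of the gene lists with a peak were also named. The comparison, the gene lists and these rules were chosen with earlier results of these data known. Without replicates in the lists no test was made. Intervals cover counting error only.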

Additional observations from a re-analysis of the deposited data

Results flagged for a closer look

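The gl2_E375G R392M list held 4 peaks on the mitochondrial genome, which no comparison above used, against 2 in gl2-5, 2 in gl2_dSTART and 0 in GL2, gl2_Amo and gl2_dZip. None of the 4 overlapped a gl2-5 peak, and the highest score among them was 100.71. The difference was not tested.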

How the results depend on the processing

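Of 88 values under other settings, 44 were close to the main value and 44 had moved, judged by the interval of the main value or, for the count of genes with peaks of both forms, which has no interval, by a factor of 1.5. Some of the close values could not move. The FDR limit of 5% removed no gl2_dSTART peak, and its gene, length and tag values there kept the main classes. Shares of shared peaks are given for gl2_dSTART first and gl2_E375G R392M second. They were 9.79% and 23.0% with an overlap of 50% of both peaks, 21.7% and 33.6% within 500 bp, 11.5% and 27.0% with summits within 100 bp, 7.25% and 26.0% at an FDR of 5% or less, 10.7% and 22.1% at a score of 100 or more, 22.3% and 21.5% with the longer list cut to the shorter by score, 19.9% and 37.7% with gl2-5 overlaps kept, 5.15% and 9.79% in gene-rich bins, 11.7% and 25.6% with neighbouring peaks joined, and 10.5% and 22.8% without the bin with most shared peaks, a setting chosen after seeing the data. Lists of equal length give nearly equal shares by construction.

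The part of the shared peaks also in GL2 was 67.7% and 68.3% at a score of 100 or more, 55.2% and 56.3% with 3 lists of equal length, and 63.7% and 65.4% with gl2-5 overlaps kept. Private peaks in a gene span alone were 30.8% and 41.2%, and within 2 kb of a gene 47.0% and 69.7%; genes with peaks of both forms then numbered 39 and 130. At an FDR of 5% or less, 19.2% of the shared and 74.3% of the private gl2_E375G R392M peaks had a gene within 1 kb, shared ones held a median of 55 tags, and private ones had a median length of 87 bp. In gene-rich bins, median lengths were 93 bp (shared) and 98 bp (private) for gl2_dSTART and 86 bp and 91 bp for gl2_E375G R392M, with 7 and 5 tags and 9 and 6 tags. The causes were not tested.

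No paired analysis was possible because the libraries of each genotype were merged into 1 list before calling. For the same reason leaving out a replicate could not be run. Single peaks rest on few tags, the lists differ in the FDR at the same p-value cutoff, and the gl2-5 list came from 4872999 ChIP tags.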

Other observations

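Covered sequence gave another view of the overlap. The gl2_dSTART peaks covered 420948 bp and the gl2_E375G R392M peaks 218976 bp, of which 115470 bp were in both, 27.4% and 52.7% of each. Peaks held 20.1% of the retained gl2_dSTART tags and 13.9% of the retained gl2_E375G R392M tags.

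The 17 gene-rich pairs found in no other fusion list held 5 to 22 tags in gl2_dSTART and 6 to 34 in gl2_E375G R392M, and 11 of them had a protein-coding gene within 1 kb. Beside those named above they include pairs at UGT72E1, a glucosyltransferase acting on lignin precursors, and at TPR10. A further pair, inside AT4G39900 and within 1 kb of UBP3, a ubiquitin protease, held 6 tags in gl2_dSTART and 15 in gl2_E375G R392M and was also in GL2. These 3 sites were picked after their values were seen. In gene-poor bins, 4 shared peaks of each list had a protein-coding gene within 1 kb.

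Another run of closely spaced gl2_dSTART peaks, on chromosome 4 from 2913183 to 2967544, differed from the private runs described above. It held 43 gl2_dSTART peaks, of which 8 were shared, with 10 gl2_E375G R392M, 5 GL2, 50 gl2_Amo and 10 gl2_dZip peaks and 0 gl2-5 peaks, and its gl2_dSTART peaks reached 42 tags.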
